A study of Mus musculus with 79 samples.

Results

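The 10 genes Lum, Dcn, Ogn, Mgp, Fbln1, Fn1, Pdgfra, Timp1, Timp2 and Timp3, which encode fibroblast matrix proteins, a fibroblast receptor and inhibitors of matrix proteases, were followed in the gene count table of 79 RNA sequencing libraries from mouse dorsal root ganglia. They were taken by symbol, and all 10 were found among the 24033 genes and had a test in each comparison. The ganglia, which hold the cell bodies of sensory neurons whose axons run in the sciatic nerve, were of lumbar levels L4-5 from the BAC-TRAP BR145-GFP mouse line. Mice were naive or had both sciatic nerves crushed, and ganglia were taken 1 h, 12 h, 24 h, 48 h, 72 h or 7 d after the crush. Input was the RNA of the ganglion before pulldown, and IP was the RNA that magnetic beads carrying a chicken anti-GFP antibody recovered. All groups were of the BR145-GFP line, naive included, and the sources used here do not name the cells that carry GFP in that line, the age of the mice or a sham operation. There were 7 naive Input libraries, and the groups of 1 h and 24 h had 5 Input libraries each, those of 12 h and 48 h had 6 each, that of 72 h had 7 and that of 7 d had 4, which makes 40. IP had 39 libraries, with equal group sizes but for 24 h, which had 4.

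Fibroblasts in the connective tissue around and within a ganglion secrete much of its extracellular matrix. Lumican (Lum), decorin (Dcn) and osteoglycin (Ogn) are small leucine-rich proteoglycans, which bind collagen fibrils, and decorin also binds TGF-beta. Matrix Gla protein (Mgp) inhibits calcification of soft tissue, fibulin 1 (Fbln1) is a glycoprotein of basement membranes and elastic fibres, and fibronectin (Fn1) is an adhesive glycoprotein that cells hold through integrins. Pdgfra, the alpha receptor for platelet-derived growth factor, marks many fibroblasts. The tissue inhibitors of metalloproteinases block enzymes that cut matrix. Timp1 is secreted and induced by cytokines in many tissues, Timp2 also takes part in the activation of pro-MMP2 at the cell surface, and Timp3 stays bound to matrix and inhibits several ADAM proteases as well.

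In the RefSeq annotation of GRCm38.p6, Dcn (chr10:97479500-97518163) and Lum (chr10:97565501-97572703) were neighbours. Ogn (chr13:49608015-49624501) lay within the span of Cenpp, and Mgp lay at chr6:136872435-136875823. Fbln1 was at chr15:85205949-85286294, Fn1 at chr1:71585473-71653280 and Pdgfra, which overlapped Mir7025, at chr5:75151322-75198206. Timp1 (chrX:20870166-20874737) lay inside the span of the synapsin gene Syn1 (chrX:20860511-20920918), and Timp3 (chr10:86300412-86349505) inside that of Syn3 (chr10:86048746-86498926). Timp2 (chr11:118301061-118355411) overlapped Cep295nl. These are spans from first to last base, with exons not used here. The sources used here do not say whether the counting used strand, and how reads of overlapping genes were assigned is not known here.

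The 250 bases before the annotated start of the Timp genes are shown because Timp1 was called higher than naive from 12 h on in both fractions, and Timp2 and Timp3 at 7 d in Input. They come from RefSeq on GRCm38.p6, read 5′ to 3′ on the strand of the gene, and capitals mark AGGAAG, a sequence that Ets factors can bind.
Timp1, plus strand, chrX:20869916-20870165: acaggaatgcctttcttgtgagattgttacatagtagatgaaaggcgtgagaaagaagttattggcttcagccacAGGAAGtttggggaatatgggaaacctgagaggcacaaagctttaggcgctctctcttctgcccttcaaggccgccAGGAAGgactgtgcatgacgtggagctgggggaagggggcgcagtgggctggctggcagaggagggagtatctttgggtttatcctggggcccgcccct
Timp2, minus strand, chr11:118355412-118355661: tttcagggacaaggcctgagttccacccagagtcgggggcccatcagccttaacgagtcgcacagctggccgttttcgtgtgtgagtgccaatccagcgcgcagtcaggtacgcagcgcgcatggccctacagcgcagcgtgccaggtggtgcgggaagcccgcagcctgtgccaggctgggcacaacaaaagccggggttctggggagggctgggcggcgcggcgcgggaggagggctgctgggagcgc
Timp3, plus strand, chr10:86300162-86300411: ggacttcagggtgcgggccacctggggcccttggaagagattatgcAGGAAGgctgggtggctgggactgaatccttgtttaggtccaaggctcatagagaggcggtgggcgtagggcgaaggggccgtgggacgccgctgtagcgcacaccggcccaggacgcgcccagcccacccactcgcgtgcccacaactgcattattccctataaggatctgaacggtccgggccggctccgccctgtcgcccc
In these windows G and C made up 54.4% of the bases of Timp1, 68% of Timp2 and 65.6% of Timp3, against a median of 52.4% over 32851 promoters. CpG occurred 6 times in Timp1, 21 times in Timp2 and 18 times in Timp3. AGGAAG, searched on both strands, began 175 and 99 bases before the start of Timp1 and 204 bases before that of Timp3, and 29.5% of all promoters held it in this window.

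The first bases of Timp1 are shown because a variant AP-1 site next to an Ets site near the start of this gene is well known from earlier work in mouse. Capitals mark TGAGTAA and AGGAAG, which do not overlap.
Timp1, plus strand, chrX:20870186-20870215: ggtggaTGAGTAAtgcgtccAGGAAGcctg
TGAGTAA began at base 27 and AGGAAG at base 41 from the start. Over windows from 250 bases before to 50 after the start, 2.68% of promoters held TGAGTAA and 35.4% held AGGAAG on either strand. The AP-1 motif TGANTCA, held by 7.81% of promoters, and the STAT motif TTCNNNGAA, held by 8.3%, were not found in these letters of Pdgfra, Fbln1, Ogn, Timp1, Timp2 or Timp3. For Lum, Dcn, Mgp and Fn1 no promoter was matched. A match is a description of letters only.

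Library totals ran from 8737964 to 22221882 counts in Input and from 3614942 to 16721527 in IP. The ribosomal RNA gene Rn45s and Lars2 together took 1.64% to 25.5% of the counts in Input and 1.37% to 75.1% in IP, with over 50% in 6 IP libraries, 2 each at 1 h, 12 h and 48 h. In Input their share was 1.64% to 2.74% at 7 d and 4.70% to 23.6% in naive, without overlap. In IP it was 1.37% to 8.16% at 7 d and 9.86% to 40.2% in naive, again without overlap. This difference between libraries cannot be told apart from the time after crush. In naive Input the neuronal gene Uchl1 averaged 4293 CPM (counts scaled to a common library size) ± 620.5 (SD, n = 7). In naive IP it averaged 2061 ± 414. The myelin gene Mbp averaged 1041 ± 197 in naive Input and 2404 ± 1167 in naive IP. Of the 10 neuron genes listed, 1 was higher and 8 were lower in naive IP than in naive Input (adjusted p under 0.05). Of the 10 Schwann cell genes listed, 5 were higher and 1 was lower. Over all genes 27.6% were higher there and 19.2% lower. In all 12 libraries of 12 h the Y-linked Ddx3y exceeded Xist, and in none of the 12 libraries of 48 h did it, so sex was not balanced over the times. With the log2 difference of these 2 genes as a covariate, the 12 h calls of Ogn and Mgp in IP and of Mgp, Dcn and Fn1 in Input were lost, as were those of Mgp at 24 h and Fn1 at 7 d in IP. Nothing in the labels ties the libraries of a group to different animals, and p-values therefore measure only the library-to-library spread, which may be technical.

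The time course was compared with naive within each fraction. In Input, 35 of the 60 member tests passed an adjusted p of 0.05, and in IP 22 of 60. All values below called log2 changes are fitted differences with their standard error, and levels are CPM on the scaled library size. Timp1 rose in both fractions from 12 h on, whereas Lum and Dcn fell from 1 h on and did not differ by the test at 72 h. At 7 d Dcn was called lower again in both fractions and Lum in IP, and Timp2 and Timp3 rose in Input.

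In Input at 1 h, 5 members fell, against 6.07% of all genes tested. At 12 h 1 member rose, against 3.05% of all genes, and 5 fell, against 2.03%. The counts were again 1 and 5 at 24 h, when 7.27% of genes rose and 4.67% fell. At 48 h 1 rose and 6 fell, against 18.4% and 18.9%. At 72 h 1 rose and 2 fell, against 12.7% and 11.5%. At 7 d 3 rose and 5 fell, against 29.7% and 26.4%.

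In IP at 1 h, 2 members fell, against 0.906% of genes. At 12 h 1 rose and 4 fell, against 1.17% and 1.09%. At 24 h the counts were 1 and 4, against 1.90% and 0.868%. At 48 h 1 rose and 2 fell, against 2.19% and 1.03%. At 72 h 1 rose, against 2.15%, and at 7 d 1 rose and 5 fell, against 13.1% and 15.3%. The median log2 change over the members was -0.93 at 1 h and -1.02 at 24 h in Input, beside 0.01 and -0.02 over all genes tested. In IP it was -0.77 and -1.58, beside -0.08 and -0.04.

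**Figure D1:**
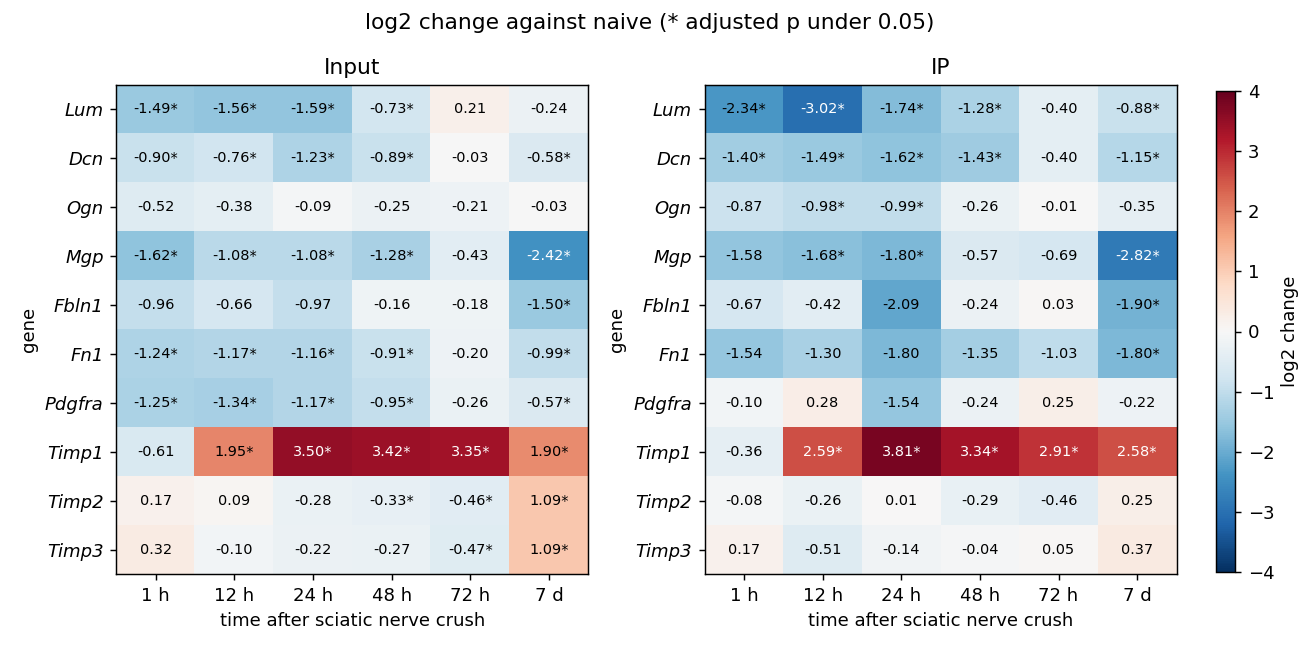
Fitted log2 change against naive of each of the 10 genes (lines of the grid) at each time (columns of the grid) in Input and IP, with a star where the adjusted p was under 0.05. Timp1 carried a star at 5 of the 6 times in each fraction, and Lum and Dcn carried stars at 1 h, 12 h, 24 h and 48 h in both.

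Lumican mRNA fell within 1 h. In naive Input Lum lay between 40.1 and 83.2 CPM with a median of 49.9. The 5 Input libraries of 1 h had 21.1, 20.5, 17.9, 21.4 and 20.4 CPM, all below the lowest naive library. That was a log2 change of -1.49 ± 0.21 (adjusted p = 4.63e-05).

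Lum stayed low through the first day. At 12 h the Input libraries ran from 12.9 to 37.5 CPM (median 16.2) and at 24 h they had 16.8, 20.1, 22.7, 20.1 and 15.4 CPM. Neither group overlapped naive, and the log2 changes were -1.56 ± 0.20 (adjusted p = 5.45e-07) and -1.59 ± 0.21 (adjusted p = 3.83e-07). The 48 h libraries, at 22.5 to 46.7 CPM (median 33.6), overlapped naive and were still lower, by a log2 change of -0.73 ± 0.19 (adjusted p = 0.00268). At 72 h the range was 53.0 to 88.4 CPM (median 61.9) and at 7 d the values were 60.4, 44.3, 31.8 and 52.1 CPM, neither of which passed the test against naive (adjusted p = 0.439 and 0.352).

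In IP the fall of Lum was seen from naive values of 34.7 to 112 CPM (median 40.3). The 1 h libraries had 10.6, 5.07, 9.66, 10.7 and 16.1 CPM and those of 12 h 3.17 to 9.16 CPM (median 6.73), with no overlap with naive. The log2 changes were -2.34 ± 0.35 (adjusted p = 9.76e-05) and -3.02 ± 0.33 (adjusted p = 1.68e-08). At 24 h the values were 11.6, 36.4, 5.65 and 14.2 CPM, of which replicate 2 reached into the naive range, and the log2 change of -1.74 ± 0.35 became -2.41 without it. The 48 h change was -1.28 ± 0.29 (adjusted p = 0.00483). At 7 d it was -0.88 ± 0.32 (adjusted p = 0.0358), and this call was lost without 7 d replicate 2, 3 or 4 or naive replicate 1, 4 or 6 (-0.61 to -0.89, adjusted p up to 0.14).

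Decorin followed the same order of times. Naive Input held 414 to 898 CPM of Dcn (median 569.8), and the 1 h libraries 334, 257, 352, 349 and 342 CPM, all below naive. The log2 change was -0.90 ± 0.16 (adjusted p = 0.00171). It was -0.76 ± 0.15 at 12 h, -1.23 ± 0.17 at 24 h, when the libraries had 272, 258, 279, 227 and 266 CPM, and -0.89 ± 0.15 at 48 h. The groups of 24 h and 48 h lay wholly below naive, and that of 12 h overlapped it. At 72 h Dcn was at 432 to 739 CPM (median 592), inside the naive range, and at 7 d the values of 469, 391, 347 and 384 CPM gave a log2 change of -0.58 ± 0.17 (adjusted p = 0.0042).

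In IP, Dcn was at 388 to 956 CPM (median 608) in naive libraries. It was at 268, 213, 192, 208 and 263 CPM at 1 h, at 119 to 309 CPM (median 215) at 12 h, and at 222, 273, 174 and 150.1 CPM at 24 h. None of these groups reached the naive range. The log2 changes were -1.40 ± 0.21, -1.49 ± 0.20 and -1.62 ± 0.24, and -1.43 ± 0.20 at 48 h. At 72 h the change of -0.40 ± 0.19 did not pass (adjusted p = 0.284), and at 7 d, with 375, 254, 224 and 310.4 CPM, it was -1.15 ± 0.23 (adjusted p = 2e-04).

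Osteoglycin, the other proteoglycan of the set, changed less. In Input its group means lay between 33.8 CPM ± 5.54 (SD, n = 5) at 1 h and 48.5 ± 17.1 (n = 7) in naive, and none of the 6 times passed the test. In IP the naive libraries ran from 40.4 to 73.3 CPM (median 59.9), those of 12 h from 18.3 to 37.0 CPM (median 30.2), and those of 24 h were at 34.6, 20.2, 28.1 and 36.4 CPM. Both times lay wholly below naive, with log2 changes of -0.98 ± 0.24 (adjusted p = 0.0145) and -0.99 ± 0.27 (adjusted p = 0.0291). The 12 h call of Ogn was lost without 12 h replicate 1 or 4 (adjusted p up to 0.083), and the 24 h call without 24 h replicate 1, 2 or 3 or naive replicate 1, 5 or 6 (adjusted p up to 0.187).

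**Figure D2:**
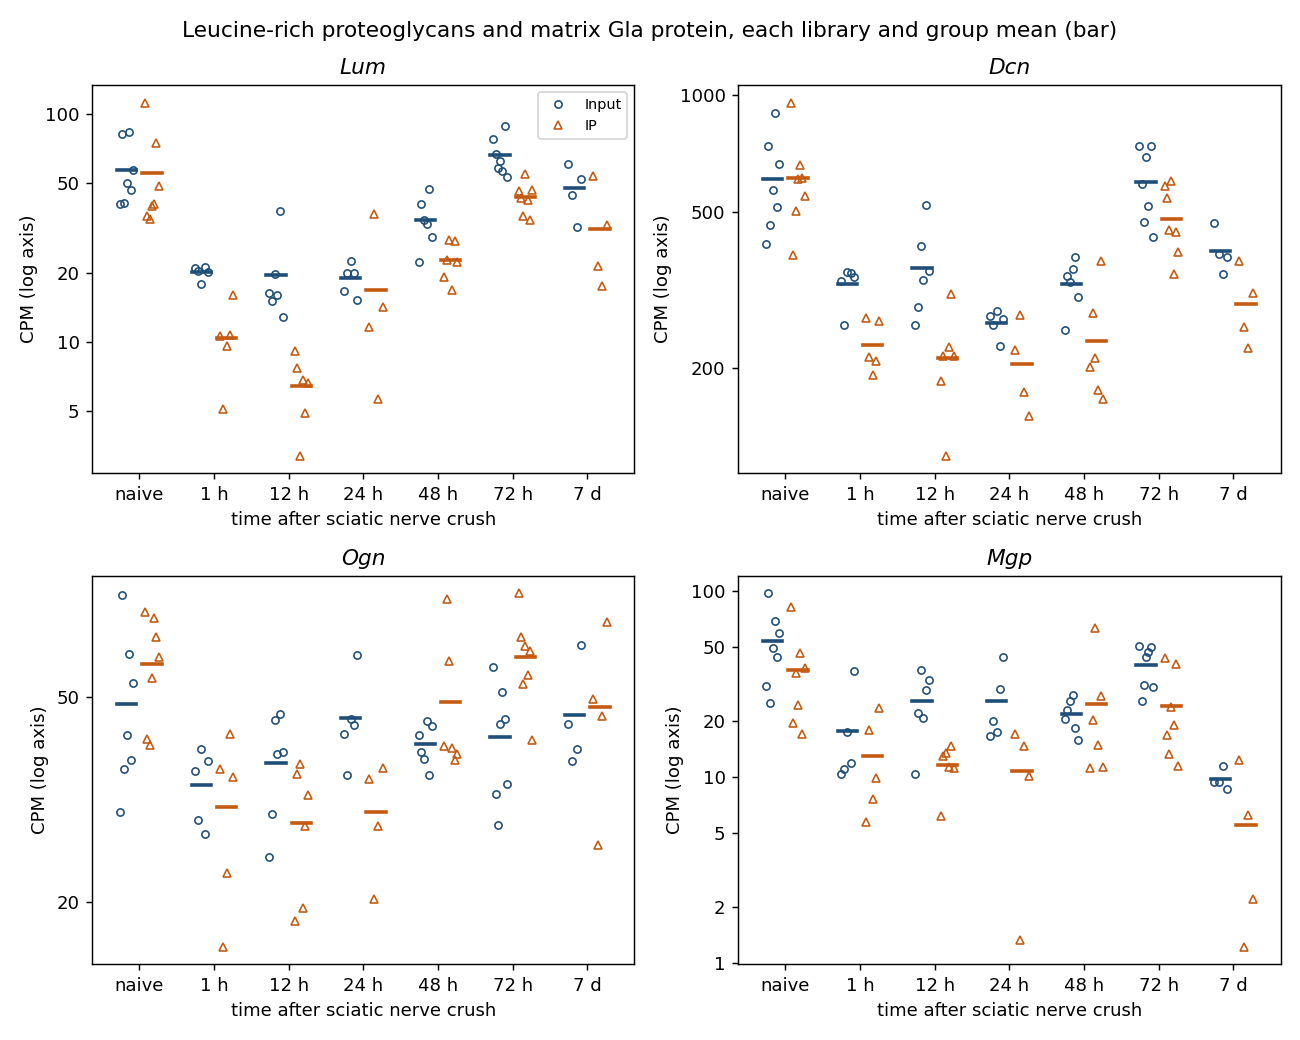
CPM (log axis) of Lum, Dcn, Ogn and Mgp in each library of Input and IP by time after crush, with 1 point per library and a bar for the group mean. Lum and Dcn dip between 1 h and 48 h and overlap the naive range at 72 h. Dcn in IP is below the naive range again at 7 d, and Mgp is lowest at 7 d.

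Markers of other cells moved at the same times. The summed CPM of 6 adipocyte genes (Adipoq, Plin1, Cidec, Fabp4, Cfd and Lep) in Input was 31.5 to 887 in naive libraries (median 98.5), 2.28 to 33.7 at 1 h (median 12.5) and 1.63 to 8.26 at 7 d (median 2.35). In IP it was 27.3 to 571 in naive (median 113), 3.75 to 35.2 at 1 h and 0.449 to 6.38 at 7 d (median 1.79). With the mean log2 CPM of these genes as a covariate, an alternative added after the data were seen, all 5 Timp1 calls remained in each fraction. Of the calls of the other members, 16 of 30 remained in Input and 6 of 17 in IP. Calls over all genes fell as well, in Input from 1819 to 19 at 1 h, 824 to 263 at 12 h and 9106 to 6066 at 7 d. In IP they fell from 293 to 46 at 1 h and from 5289 to 860 at 7 d. In Input the calls lost were those of Dcn and Fn1 at 1 h, 12 h and 7 d, Mgp at 1 h, 12 h and 24 h, Pdgfra at 1 h and 7 d, Fbln1 at 7 d, Timp2 at 48 h and Timp3 at 72 h. In IP they were those of Dcn at 1 h and 7 d, Lum at 24 h and 7 d, Ogn at 12 h and 24 h, Mgp at 12 h, 24 h and 7 d, and Fbln1 and Fn1 at 7 d. Because this covariate differed between the time groups, it cannot separate adipocyte RNA from time. The part of adipocyte RNA in these results was not tested. In bulk RNA, fewer cells of a type and less RNA per cell cannot be told apart.

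The other 22 fibroblast genes listed, among them Igfbp6, Smoc2, Cygb and Vim, summed to a median of 5250 CPM in naive Input (3860 to 6692), 3662 at 1 h (3469 to 4386) and 5870 at 72 h (5395 to 7005). Of the 21 tested in Input, 8 fell and 0 rose at 1 h, where 6.07% of all genes fell. At 48 h 12 fell and 2 rose, against 18.9% and 18.4%, at 72 h 7 fell and 4 rose, against 11.5% and 12.7%, and at 7 d 8 fell and 4 rose, against 26.4% and 29.7%. Tcf21 had no count in any Input library of 24 h, 48 h or 7 d. In IP 6 of the 22 fell and 0 rose at 1 h, against 0.906% and 0.665% of all genes. At 24 h 3 fell and 1 rose, against 0.868% and 1.90%, and at 7 d 6 fell and 1 rose, against 15.3% and 13.1%. Vim was the 1 that rose at 24 h, by 1.24 ± 0.18 on the log2 scale (adjusted p = 4.66e-06). The 12 macrophage genes summed to a median of 265 CPM in naive Input and 660 at 72 h (456 to 688), and to 518 at 7 d. In IP they had a median of 274 CPM in naive and 90.1 at 1 h. The 10 Schwann cell genes summed in IP to 4726 to 10315 CPM in naive (median 6348), 3668 to 4579 at 1 h, 3128 to 3846 at 12 h (median 3430), 3904 to 7287 at 72 h and 3247 to 3797 at 7 d. In IP 6 of these 10 fell at 12 h, against 1.09% of all genes. At 7 d 5 fell and 1 rose, against 15.3% and 13.1%. The libraries of 1 h, 24 h and 48 h had 2, 3 and 1 that fell, against 0.906%, 0.868% and 1.03% of all genes. At 72 h the median log2 change of the 10 was -0.23, beside -0.05 over all genes. In Input their median was 4717 CPM in naive, 3964 at 12 h and 4053 at 7 d. The 8 neutrophil and lymphocyte genes summed in Input to 74.9 to 909 CPM in naive (median 334), 12.3 to 133 at 1 h (median 58.2), 177 to 825 at 72 h (median 316) and 19.7 to 43.8 at 7 d (median 32.2). In IP their median was 136 CPM in naive, 28.2 at 1 h and 32.5 at 7 d. Of these 8, 2 fell in Input and 3 in IP at 1 h, against 6.07% and 0.906% of all genes. The part of macrophage, Schwann, neutrophil and lymphocyte RNA in the members' values was not tested.

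**Figure D3:**
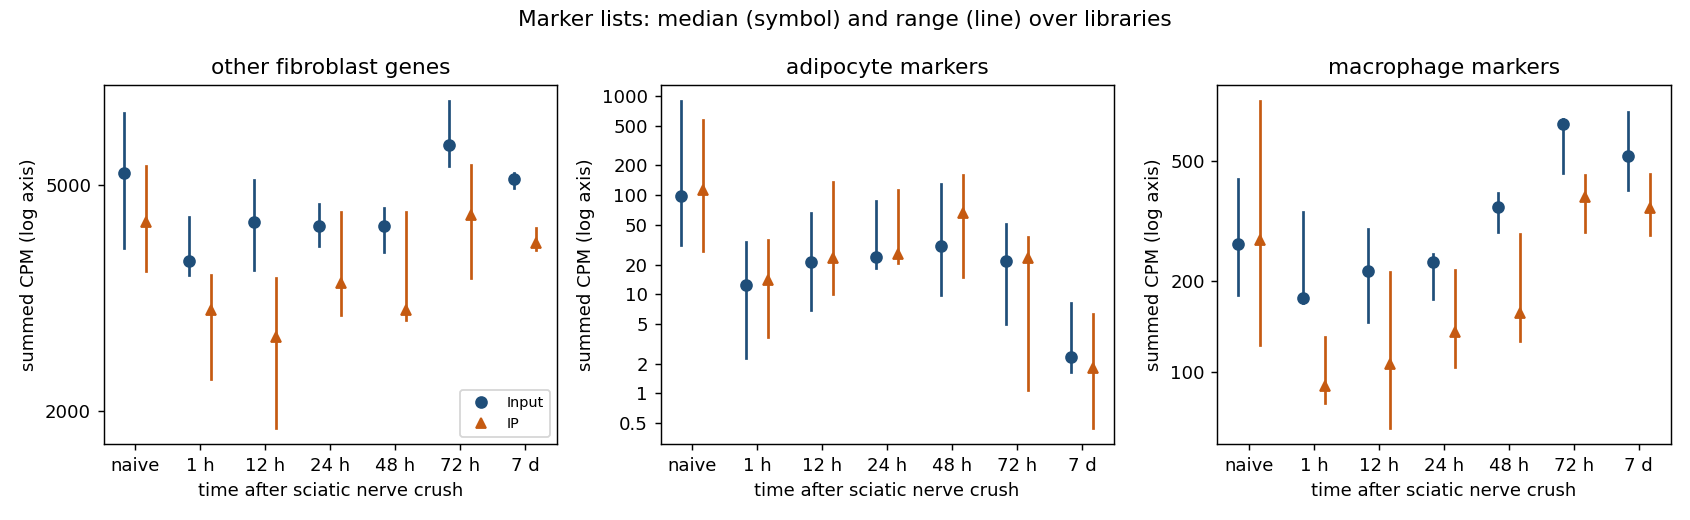
Summed CPM (log axis) of the other fibroblast genes, the adipocyte genes and the macrophage genes by time in Input and IP, with the median as a point and the range over libraries as a bar. The adipocyte sum has its highest values in naive libraries and its lowest at 7 d in both fractions.

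Matrix Gla protein mRNA was lowest at 7 d. Naive Input ranged from 25.0 to 97.6 CPM of Mgp (median 49.5), and the 7 d libraries had 9.44, 9.37, 11.5 and 8.62 CPM. The 7 d libraries were all below naive, with a log2 change of -2.42 ± 0.37 (adjusted p = 7.74e-07). Of the 5 libraries of 1 h, 4 lay between 10.4 and 17.6 CPM, below naive, and replicate 5 was at 37.3 CPM, inside the naive range. The log2 change was -1.62 ± 0.33 (adjusted p = 0.0045). At 48 h the log2 change was -1.28 ± 0.30 (adjusted p = 0.000922). The calls at 12 h (-1.08 ± 0.30) and 24 h (-1.08 ± 0.32) were lost without 12 h replicate 1, 2 or 4 or naive replicate 2, 5 or 7, and without 24 h replicate 1, 2 or 3 or naive replicate 2, with adjusted p up to 0.0933 and 0.0749.

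In IP, Mgp was at 17.1 to 81.9 CPM in naive (median 36.5) and at 12.3, 1.22, 6.26 and 2.20 CPM at 7 d, again with no overlap. The log2 change was -2.82 ± 0.54 (adjusted p = 0.000127), and -3.64 without 7 d replicate 1. IP calls of Mgp were also made at 12 h (-1.68 ± 0.47, adjusted p = 0.0395) and 24 h (-1.80 ± 0.52, adjusted p = 0.046). The first was lost without 12 h replicate 1, 2, 4 or 6 or naive replicate 1, 5 or 7, with adjusted p up to 0.136. The second was lost without any 1 of the 4 libraries of 24 h or naive replicate 1, 3, 4, 5 or 7, with adjusted p up to 0.205.

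Fibulin 1 was sparsely counted. In naive Input Fbln1 lay at 2.61 to 11.2 CPM (median 4.20), and at 7 d at 2.10, 0.959, 2.19 and 1.69 CPM, all below naive. The log2 change was -1.50 ± 0.38 (adjusted p = 0.000788), and no earlier time passed the test. In IP the naive libraries had 1.78 to 19.2 CPM (median 5.90) and those of 7 d 4.33, 2.58, 0.373 and 0.300 CPM, which overlapped. The log2 change of Fbln1 in IP was -1.90 ± 0.55 (adjusted p = 0.00797), and -2.79 without 7 d replicate 1.

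Fibronectin mRNA fell in Input. Fn1 ran from 5.72 to 17.6 CPM in naive Input (median 10.8) and was at 4.01, 3.39, 5.61, 5.44 and 5.98 CPM at 1 h, where only replicate 5 reached the naive range. The log2 change was -1.24 ± 0.25 (adjusted p = 0.00348). It was -1.17 ± 0.24 at 12 h, -1.16 ± 0.25 at 24 h and -0.91 ± 0.23 at 48 h, each past the test and each overlapping naive. At 72 h it was -0.20 ± 0.21 (adjusted p = 0.558), and at 7 d, with 8.30, 3.18, 3.86 and 7.02 CPM, it was -0.99 ± 0.25 (adjusted p = 0.000911).

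In IP a single library set the naive mean of Fn1. Naive replicate 1 had 151 CPM, while the other 6 ran from 11.6 to 25.7 CPM. At 7 d the values were 12.7, 3.67, 6.26 and 21.4 CPM, inside and below that range. The 7 d change of -1.80 ± 0.67 (adjusted p = 0.0406) was -0.75 without naive replicate 1 (adjusted p = 0.299), and the call was also lost without 7 d replicate 1, 2 or 3. No earlier time passed the test in IP.

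The receptor Pdgfra, which had 19 to 184 counts per Input library, fell early in Input. It ran from 4.27 to 11.3 CPM in naive (median 6.29), from 2.21 to 4.17 CPM at 12 h (median 2.74), and was at 2.00, 3.96, 3.87, 4.04 and 2.91 CPM at 24 h. Neither time overlapped naive, and the log2 changes were -1.34 ± 0.25 (adjusted p = 0.000478) and -1.17 ± 0.26 (adjusted p = 0.00128). They were -1.25 ± 0.25 at 1 h and -0.95 ± 0.23 at 48 h, with overlap. The 7 d call (-0.57 ± 0.24, adjusted p = 0.0437) was lost without 7 d replicate 2 or 3 or naive replicate 2, 4 or 5 (adjusted p up to 0.16). In IP no time passed, and the 12 h libraries alone ran from 1.21 to 43.4 CPM.

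**Figure D4:**
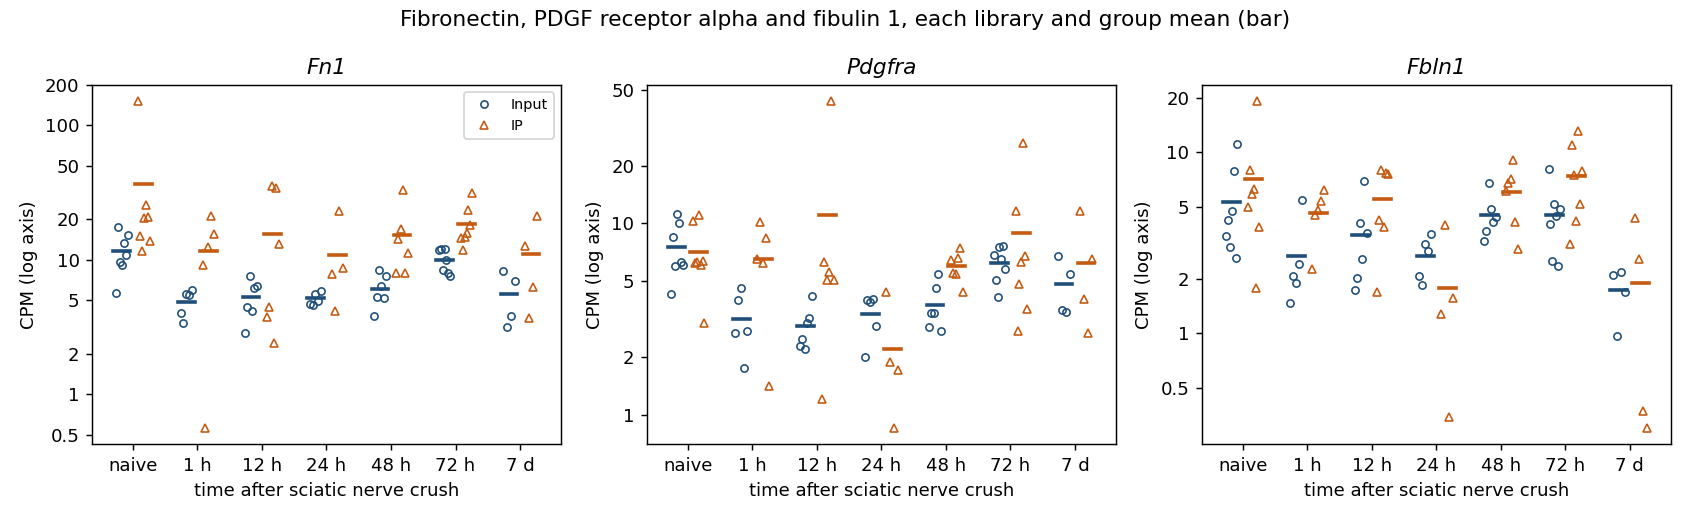
CPM (log axis) of Fn1, Pdgfra and Fbln1 in each library of Input and IP by time, with 1 point per library and a bar for the group mean. The single high Fn1 point in naive IP is replicate 1 at 151 CPM.

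Timp1 rose after the crush in both fractions. In naive Input it lay at 1.00 to 3.39 CPM (median 2.14) and at 1 h at 0.936, 2.08, 1.74, 0.698 and 2.12 CPM, which did not pass the test (adjusted p = 0.203). At 12 h it had reached 6.56 to 12.5 CPM (median 8.21), and at 24 h 15.5, 21.2, 25.3, 30.8 and 35.9 CPM. Every library from 12 h on was above every naive library. The log2 changes were 1.95 ± 0.25 (adjusted p = 4.53e-07) and 3.50 ± 0.24 (adjusted p = 1.35e-15).

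Timp1 stayed high for the next days and was lower again at 7 d. In Input it was at 16.7 to 27.0 CPM at 48 h (median 25.1) and at 17.1 to 31.1 CPM at 72 h (median 22.7). The log2 changes were 3.42 ± 0.23 (adjusted p = 4.36e-16) and 3.35 ± 0.23 (adjusted p = 7.18e-16). At 7 d the values of 6.01, 8.54, 11.1 and 7.02 CPM gave 1.90 ± 0.26 (adjusted p = 5.43e-08), above naive and below the 72 h range.

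In IP, Timp1 was at 0.228 to 4.10 CPM in naive (median 1.07). At 1 h replicate 2 had no Timp1 count, which with a limit of 3 counts allows up to 1.69 CPM for counting error only, and the others had 0.637, 8.97, 0.937 and 0.563 CPM. The 12 h libraries ran from 2.80 to 11.1 CPM (median 10.3) and those of 24 h were at 23.7, 24.0, 22.8 and 19.2 CPM. At 24 h, 48 h and 72 h no library overlapped naive, while at 12 h and 7 d some did. The log2 changes were 2.59 ± 0.52 at 12 h (adjusted p = 0.00166), 3.81 ± 0.52 at 24 h (adjusted p = 9.11e-07), 3.34 ± 0.50 at 48 h and 2.91 ± 0.49 at 72 h. At 7 d, with 5.74, 2.24, 9.54 and 21.5 CPM, it was 2.58 ± 0.53 (adjusted p = 0.000224), and 1.83 without replicate 4.

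Timp2 changed little until 7 d. Naive Input held 420.3 to 592 CPM (median 504) and the 7 d libraries 1172, 994, 897 and 1073 CPM, all above naive. The log2 change was 1.09 ± 0.12 (adjusted p = 3e-10). Before that, Timp2 in Input was lower at 72 h, at 313 to 413 CPM (median 354), all below naive, by a log2 change of -0.46 ± 0.11 (adjusted p = 0.000769). The smaller change at 48 h (-0.33 ± 0.11, adjusted p = 0.0169) was lost without 48 h replicate 3 (-0.27, adjusted p = 0.0536).

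Timp3 in Input was also highest at 7 d. It was at 86.4 to 145 CPM in naive (median 121) and at 277, 233, 233 and 261 CPM at 7 d, all above naive, a log2 change of 1.09 ± 0.14 (adjusted p = 1.19e-08). At 72 h, with 69.3 to 122 CPM (median 85.4) and overlap with naive, it was lower by -0.47 ± 0.12 on the log2 scale (adjusted p = 0.00387). The gene that spans Timp3, Syn3, was at 8.23 CPM ± 1.96 (SD, n = 7) in naive Input and 8.45 ± 1.17 (n = 4) at 7 d. Syn1, which spans Timp1, was in Input at 148 CPM ± 23.9 (n = 7) in naive, 133 ± 14.7 (n = 5) at 24 h, 165 ± 34.8 (n = 6) at 48 h, 153 ± 18.9 (n = 7) at 72 h and 379 ± 68.3 (n = 4) at 7 d. In IP Syn1 was at 105 CPM ± 30.4 (n = 7) in naive, 113 ± 43.7 (n = 4) at 24 h, 97.5 ± 25.9 (n = 6) at 48 h, 123 ± 21.7 (n = 7) at 72 h and 212 ± 30.8 (n = 4) at 7 d. The part of Syn1 reads in the Timp1 counts, and of Syn3 reads in those of Timp3, was not tested. The summed CPM of 6 satellite glia genes in Input had a median of 2812 in naive (2387 to 3348) and 6125 at 7 d (5436 to 7021), and its part in the Timp2 and Timp3 values was not tested.

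In IP neither gene passed against naive at any time. Timp2 was at 354 to 518 CPM in naive (median 497) and at 683, 545, 518 and 591 CPM at 7 d, a log2 change of 0.25 ± 0.17 (adjusted p = 0.263). Timp3 was at 101 to 152 CPM (median 113) and at 186, 138, 162 and 167 CPM, a log2 change of 0.37 ± 0.21 (adjusted p = 0.166). The Timp3 ranges overlapped. The Timp2 ranges all but touched, with the highest naive library at 518.01 CPM and the lowest 7 d library at 518.23 CPM.

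**Figure D5:**
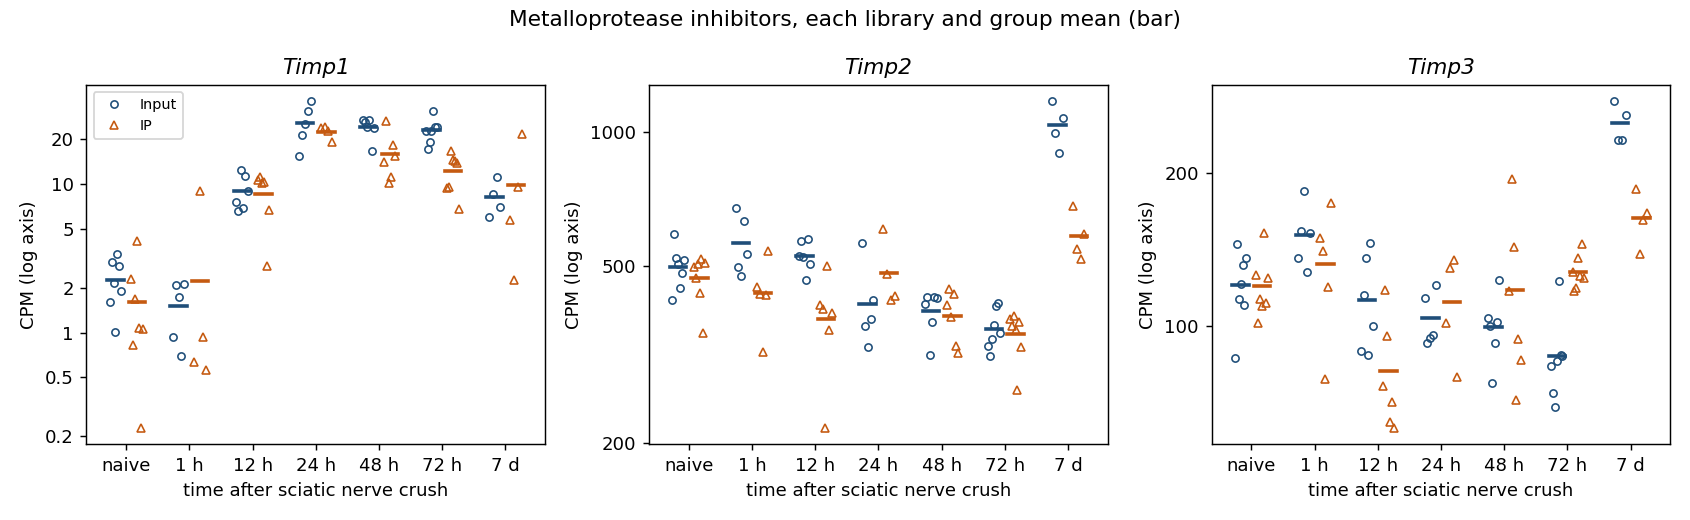
CPM (log axis) of Timp1, Timp2 and Timp3 in each library of Input and IP by time, with 1 point per library and a bar for the group mean. The IP library of 1 h with no Timp1 count is not on the log axis. Timp1 is high from 12 h, and Timp2 and Timp3 are highest at 7 d in Input.

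The difference between the IP and Input responses was tested directly in a fit of both fractions. Over the 6 times together it passed for 2 of 10 members, Timp2 (adjusted p = 0.00767) and Timp3 (adjusted p = 0.00447), against 12.0% of all genes. At single times 1 of 60 member tests passed, Timp2 at 7 d, where the IP response was lower than the Input response by a log2 difference of -0.74 ± 0.21 (adjusted p = 0.0116), and 6.34% of all genes were lower there. For Timp3 at 7 d the difference was -0.61 ± 0.26 (adjusted p = 0.0936). At 1 h, 12 h, 24 h, 48 h and 72 h only 2, 1, 4, 7 and 0 of all 19584 genes passed. Without the 7 d libraries, an alternative added after the data were seen, 0 of 10 members passed over the remaining times together. Over all genes 27 then passed in place of 2342.

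IP was also compared with Input at each time, and 21 of 70 member tests passed. In naive ganglia 1 member, Fn1, was higher in IP, by a log2 difference of 1.66 ± 0.41 (adjusted p = 0.000578), where 27.6% of genes were higher. That difference was 0.61 without IP naive replicate 1 (adjusted p = 0.161). At 1 h 1 member was higher, against 17.6% of genes, and 3 were lower, against 18.3%. At 12 h 2 were higher and 5 lower, against 26.7% and 21.1%. At 24 h 1 was lower, against 14.1%, and at 48 h 1 was higher and 1 lower, against 24.4% and 20.2%. At 72 h 2 were higher and 2 lower, against 28.6% and 20.2%, and at 7 d 2 were lower, against 5.73%. With IP and Input libraries of 1 number as a block, a pairing that was not established, Mgp (-0.84, adjusted p = 0.0206) and Fn1 (0.85, adjusted p = 0.036) also passed at 72 h, and no member call changed at 7 d.

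Lum was lower in IP than in Input at 12 h, with no overlap, by a log2 difference of -1.53 ± 0.29 (adjusted p = 1.47e-05), and Dcn by -0.77 ± 0.19 (adjusted p = 0.000548). At 1 h they differed by -0.90 ± 0.31 and -0.51 ± 0.21. The 1 h call of Lum was lost without IP replicate 2 (-0.79, adjusted p = 0.0559), and that of Dcn without IP replicate 2, 3 or 4 or Input replicate 1, 3 or 5 (adjusted p up to 0.1). The Lum difference at 72 h (-0.61 ± 0.23) was lost without Input replicate 6 (adjusted p = 0.0598), and the Dcn difference at 48 h (-0.48 ± 0.19) without IP replicate 1, 4 or 6 (adjusted p up to 0.0912).

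Timp1 was lower in IP at 72 h, at 6.75 to 16.7 CPM against 17.1 to 31.1 CPM in Input, by -0.93 ± 0.30 on the log2 scale (adjusted p = 0.00707). The ranges did not overlap. Timp2 was lower in IP at 7 d with no overlap (-0.82 ± 0.17, adjusted p = 0.000287) and at 12 h (-0.47 ± 0.14, adjusted p = 0.00399). Timp3 was higher in IP at 72 h (0.55 ± 0.16, adjusted p = 0.00242). The Timp3 call at 7 d (-0.62 ± 0.21) was lost without IP replicate 2 or 3 or Input replicate 1 (adjusted p up to 0.0922), and that at 12 h (-0.45 ± 0.17) without IP replicate 4, 5 or 6 or Input replicate 3 or 5 (adjusted p up to 0.0778). The Timp2 call at 1 h (-0.37 ± 0.15) was lost without IP replicate 2 or 3 or Input replicate 1 or 5 (adjusted p up to 0.171).

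The remaining differences between fractions each rested on few libraries. Pdgfra at 12 h was higher in IP by 1.41 ± 0.45 and by 0.68 without IP replicate 5 (adjusted p = 0.171). Fn1 at 12 h was higher by 1.38 ± 0.49 and by 0.71 without IP replicate 3 (adjusted p = 0.307), and this call was also lost without IP replicate 5. The Fn1 calls at 1 h (1.39 ± 0.52) and 48 h (1.24 ± 0.46) were lost without IP replicate 4 or 5 or Input replicate 1, 2 or 4 of 1 h, and without IP replicate 3 or 4 or Input replicate 1 of 48 h, with adjusted p up to 0.223 and 0.0914. The Mgp calls at 12 h (-1.17 ± 0.42) and 24 h (-1.18 ± 0.47) were lost without IP replicate 1 of 12 h (adjusted p = 0.0506), and without IP replicate 2, 3 or 4 or Input replicate 4 or 5 of 24 h (adjusted p up to 0.196). Ogn at 72 h (0.52 ± 0.20) was lost without IP replicate 1 or 2 or Input replicate 2, 3 or 7 (adjusted p up to 0.0844).

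Neighbouring times were compared to place each change. In Input, 15 of 50 member tests passed. Timp1 rose from 1 h to 12 h by 2.57 ± 0.28 on the log2 scale, where 0.857% of genes rose, and from 12 h to 24 h by 1.55 ± 0.21, where 2.93% rose. Lum rose from 24 h to 48 h by 0.86 ± 0.22 (adjusted p = 0.011), where 3.13% rose. From 48 h to 72 h 5 members rose, against 8.66%: Lum by 0.94, Dcn by 0.86, Mgp by 0.86, Fn1 by 0.71 and Pdgfra by 0.69. The last 3 of these calls were lost without 1 library. For Mgp these were 48 h replicates 1, 2, 3, 5 and 6 and 72 h replicates 1, 4, 5 and 6 (adjusted p up to 0.0979), for Fn1 48 h replicates 1, 2 and 5 and 72 h replicates 1, 2 and 4 (up to 0.077), and for Pdgfra 48 h replicates 1, 2, 3 and 6 and 72 h replicates 1, 4, 5 and 6 (up to 0.0837).

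Between 72 h and 7 d in Input, Timp2 rose by 1.55 ± 0.12 (adjusted p = 1.13e-13) and Timp3 by 1.57 ± 0.14 (adjusted p = 3.97e-12), where 28.2% of genes rose. Over the same interval 5 members fell, against 24.7%: Timp1 with a log2 change of -1.45 ± 0.22, Mgp with -1.99, Fbln1 with -1.32, Fn1 with -0.80 and Dcn with -0.55. The Fn1 call was lost without 7 d replicate 2 (adjusted p = 0.0535).

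In IP, 5 of 50 neighbouring tests passed. None did from 1 h to 12 h, 12 h to 24 h or 24 h to 48 h, where 0.0911%, 0.354% and 0.0643% of all genes changed in either direction, and 2, 4 and 3 members had an unadjusted p under 0.05 in edgeR. Dcn rose from 48 h to 72 h by 1.03 ± 0.20 (adjusted p = 0.0409), where 0.0107% of genes rose. That call was lost without 48 h replicate 1, 2, 3, 4 or 6 or 72 h replicate 1, 2, 3, 4, 6 or 7 (adjusted p up to 0.277). From 72 h to 7 d Timp2 rose by 0.71 ± 0.16 (adjusted p = 0.00207), where 9.95% rose, and Dcn, Mgp and Fbln1 fell with log2 changes of -0.75, -2.14 and -1.93, where 9.89% fell. The Dcn call was lost without 7 d replicate 2 or 3 (adjusted p up to 0.0642), and the Fbln1 call without 7 d replicate 4 (adjusted p = 0.0568). Without 7 d replicate 1 the last 2 values were -2.95 and -2.82.

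Genes with related roles were counted from lists. Of 11 other small leucine-rich proteoglycans tested in Input, 6 fell and 0 rose at 48 h, when 18.9% of all genes fell and 18.4% rose, with a median log2 change of -0.89, beside -0.03 over all genes. Among them Ecm2 fell with a log2 change of -1.71 ± 0.28 (adjusted p = 4.82e-06) and Prelp, which binds basement membranes to connective tissue, with -1.10 ± 0.24 (adjusted p = 0.00038). In IP at 7 d 4 of 10 fell, against 15.3% of all genes, among them Fmod, fibromodulin, from 3.26 CPM ± 2.15 (SD, n = 7) to 0.0786 ± 0.106 (n = 4).

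Of 16 other fibulin and elastic fibre genes in Input at 7 d, 4 rose and 2 fell, where 29.7% of all genes rose and 26.4% fell. Fbln5, which is needed for elastic fibre assembly, rose by 1.60 ± 0.18 (adjusted p = 1.05e-09) and Fbln2 by 1.42 ± 0.19 (adjusted p = 1.84e-08), both on the log2 scale. In IP at 7 d 1 of 15 rose and 5 fell, against 13.1% and 15.3% of all genes. Among those 5 was Fbln7, with a log2 change of -3.88 ± 0.95 (adjusted p = 0.00152). Efemp1, fibulin 3, fell in IP at 12 h from 32.0 CPM ± 14.3 (SD, n = 7) to 7.83 ± 2.87 (n = 6).

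Of 26 listed metalloproteases, the enzyme family that Timps act on, 23 were tested in Input, and 14 rose and 2 fell at 7 d, against 29.7% and 26.4% of all genes, with a median log2 change of 0.96 beside 0.03 over all genes. Mmp16, a membrane-type protease that activates pro-MMP2, rose from 4.31 CPM ± 0.827 (SD, n = 7) to 63.6 ± 7.40 (n = 4). Adam8 rose by 3.98 ± 0.23 on the log2 scale (adjusted p = 8.8e-19) and Adam15 by 1.94 ± 0.17 (adjusted p = 3.71e-13). In IP at 7 d 4 of 26 rose and 7 fell, against 13.1% and 15.3%, and Adam8 rose by 4.69 ± 0.38 (adjusted p = 1.74e-13).

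Of 16 fibronectin partners in Input at 7 d, 7 rose and 4 fell, against 29.7% and 26.4% of all genes. Itgb1, the beta 1 chain of the fibronectin receptors, rose by 1.88 ± 0.15 (adjusted p = 9.59e-14) and the hyaluronan receptor Cd44 by 1.68 ± 0.12 (adjusted p = 2.29e-15). In IP at 7 d Itgb1 rose by 1.08 ± 0.17 (adjusted p = 5.07e-06), and Thbs1, thrombospondin 1, fell with a log2 change of -3.34 ± 0.56 (adjusted p = 1.46e-05).

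Of 6 other PDGF genes in Input at 7 d, 1 rose, the ligand gene Pdgfc (1.71 ± 0.28, adjusted p = 2.06e-06), and 1 fell, the ligand gene Pdgfa (-0.44 ± 0.18, adjusted p = 0.035). Of 10 TGF-beta genes at that time, 4 rose and 1 fell. Over all genes of that comparison 29.7% rose and 26.4% fell. The ligand gene Tgfb1 rose at 72 h by 1.68 ± 0.18 (adjusted p = 8.05e-10), the receptor gene Tgfbr2 at 7 d by 1.28 ± 0.18 (adjusted p = 6.7e-08), and the inhibitor Smad7 fell at 7 d with -1.73 ± 0.25 (adjusted p = 1.13e-07).

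Of 14 genes of the STAT3 and AP-1 pathways, which are known to act on Timp1 in other tissues, 6 rose and 0 fell in Input at 24 h, against 7.27% and 4.67% of all genes, and 10 rose and 2 fell at 7 d, against 29.7% and 26.4%. In IP 4 rose and 0 fell at both times, where 1.90% of all genes rose and 0.868% fell at 24 h, and 13.1% and 15.3% at 7 d. The injury-induced factor gene Atf3 went from 13.1 CPM ± 3.66 (SD, n = 7) in naive Input to 794 ± 91.7 (n = 6) at 48 h, a log2 change of 5.94 ± 0.17 (adjusted p = 3.37e-29). Jun rose at 48 h by 1.53 ± 0.11 (adjusted p = 6.96e-15), and the cytokine gene Il6 at 24 h by 3.56 ± 0.34 (adjusted p = 5.26e-12).

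Likeness of pattern was taken as Pearson's r of log2 CPM over all libraries of a fraction, as a description of libraries that share groups and depth. Over the 40 Input libraries the gene most like Timp1 was Gadd45a (r = 0.977), that most like Timp2 was Clstn1 (0.968), and that most like Timp3 was Lpar1 (0.916). Lum was most like Tgfbi (0.869) and Dcn most like Gpc3 (0.899), and Mgp was most like Gng11 (0.896). Fn1 was most like Aebp1 (0.860), Ogn like Igfbp5 (0.805), Pdgfra like Lum (0.784) and Fbln1 like H19 (0.775). In the 39 IP libraries Timp1 was most like Atf3 (0.810), Lum like Pmp22 (0.824) and Dcn like Apod (0.882). Among members, Lum and Dcn had r = 0.855 in Input and 0.805 in IP, and 0.785 and 0.579 after the group means were removed. Timp2 and Timp3 had r = 0.886 in Input and 0.359 in IP, and 0.470 and 0.202 after the group means were removed.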

How the data were processed

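The authors deposited read counts per gene symbol and a table of counts per short repeat interval, which was not used here. The kits were SMART-Seq v4 and Nextera XT, per the labels' protocols. The submitters' processing notes name bcl2fastq 2.17, and, with no version or setting, STAR, HTSeq, GRCm38 and mm10. The table had 24060 symbols, of which 27 turned into dates (0.0346% to 0.214% of a library's counts) were left out. Groups followed the labels.

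Each fraction was fitted as 7 groups, and both together as 14, with robust quasi-likelihood F-tests after filterByExpr and TMM scaling (edgeR 4.0.16, R 4.3.3). Genes tested were 16217 in Input, 18656 in IP and 19584 in both. The Benjamini-Hochberg adjustment ran over every gene of a fit, and an adjusted p under 0.05 was a call. The F statistics gave the standard errors, and log2 CPM used a prior count of 2. The tests were checked on simulated data. All simulated libraries, IP included, took their gene means and spread from the naive Input libraries, so the spread of IP was not covered. At a true log2 change of 1 in either direction, 61% were called at 24 h in IP and 83% at 48 h in Input. For IP against Input at 24 h it was 56%. Alternatives used limma 3.58.1, DESeq2 1.42.0 and the settings named in the closing section.

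The members and the 18 lists, with 208 entries, were chosen with earlier results of these data known. From each list other than cell type markers, up to 3 genes per fraction with the smallest adjusted p could be named, and for each member the 2 genes most like it among those with a mean of at least 5 CPM. Lists covered the members, other proteoglycans, fibulins and elastic fibres, fibroblast, perineurial, metalloprotease, fibronectin, PDGF, TGF-beta, STAT3 and AP-1, macrophage, Schwann, satellite, endothelial, mural, neutrophil and lymphocyte, adipocyte and neuron genes. At 7 d in Input, where 29.7% of all genes rose and 26.4% fell, perineurial genes had 4 that rose and 2 that fell of 8. Schwann genes had 4 and 1 of 10, endothelial 3 and 1 of 8, mural 2 and 3 of 8, neutrophil and lymphocyte 0 and 6 of 8, and neuron genes 3 and 4 of 10. Deviations from the group means correlated over 0.1 between IP and Input of 1 number in all 7 pairs of 72 h (0.142 to 0.205) and all 4 of 7 d (0.110 to 0.334). The reported fits used no pairing, and a block by number was an alternative only. Ddx3y was at -2.66 log2 CPM in Input 72 h replicate 4, the value of a count of 0, and at 3.99 in IP 72 h replicate 4. This Y-linked gene thus differed within that pair, and the pairing of 72 h is not established. No 2 libraries of a group were identical (0 of 192 pairs), and the smallest chi-square per degree of freedom was 9.53. The limit given for a count of 0 covers counting error only.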

Additional observations from a re-analysis of the deposited data

Results flagged for a closer look

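Among 140 groups of 4 to 7 libraries looked at for the 10 genes, 9 held a library far from the others by Dixon's criterion, and chance gives about 1 in 20 groups. Fn1 was at 151 CPM in IP naive replicate 1, while the others ran from 11.6 to 25.7 CPM, and at 0.564 CPM, from 1 count, in IP 1 h replicate 2 (others 9.14 to 21.1). Pdgfra was at 1.41 CPM, from 5 counts, in IP 1 h replicate 5 (others 6.21 to 10.1), and Mgp at 6.15 CPM in IP 12 h replicate 1 (others 11.2 to 14.7). Lum was at 17.9 CPM in Input 1 h replicate 3 (others 20.4 to 21.4), and Dcn at 257 CPM in Input 1 h replicate 2 (others 334 to 352). Timp1 was at 16.7 CPM in Input 48 h replicate 5 (others 23.8 to 27.0). Input 72 h replicate 5 was at 122 CPM of Timp3 (others 69.3 to 87.7), and IP 72 h replicate 5 at 263 CPM of Timp2 (others 329.8 to 386).

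The responses of IP and Input differed by test for Timp2 (adjusted p = 0.00767 over all times) and Timp3 (adjusted p = 0.00447). For Timp2 at 7 d the log2 difference of the responses was -0.74.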

How the results depend on the processing

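Of 101 member calls, 94 remained with a replicate block, 94 with RLE size factors, 97 without the Rn45s and Lars2 counts, 91 with no filter, 96 with a mean of at least 1 CPM, 88 with limma voom, 88 without the 6 libraries of over 50% Rn45s and Lars2, 93 with Ddx3y minus Xist as a covariate and 87 with glial markers as a covariate. Of the alternatives added after the data were seen, 93 remained with edgeR's earlier quasi-likelihood method, 72 with the adipocyte covariate, and 67 of 73 without the 7 d libraries. DESeq2 kept 77 of the 77 it covered. The adipocyte covariate left 11 calls against naive in IP in place of 22, 21 in Input in place of 35, and 3 between neighbouring times in IP in place of 5. It turned the 7 d values of Fn1 in IP to 0.077 and of Pdgfra in Input to 0.0798, neither past the test. Glial markers left 1 difference of responses in place of 2, and turned Ogn between 72 h and 7 d in Input to -0.60 (adjusted p = 0.0147). Without the 7 d libraries 0 differences of responses passed among the members, and 27 over all genes in place of 2342. In that setting 2 neighbouring tests of members in IP passed in place of 1. The cause was not tested.

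Leaving out 1 library at a time gave 17 to 24 calls against naive in IP, 32 to 39 in Input, 18 to 25 for IP against Input, 2 to 4 differences of responses (4 without IP 7 d replicate 1 or IP naive replicate 3), and 4 to 5 and 12 to 16 between neighbouring times in IP and Input. The Ddx3y minus Xist covariate ended the 12 h calls of Ogn (-0.57) and Mgp (-1.41) in IP and of Mgp (-0.68), Dcn (-0.59) and Fn1 (-0.85) in Input.

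The reported fits did not pair IP with Input at any time. At the times other than 72 h and 7 d, not every pair of 1 number correlated over 0.1. Over all times 22 of 39 pairs did (-0.28 to 0.36), and 22 libraries correlated best with their own number, a hint from the data and not from the design. Libraries of 1 number may share a source at the other times too. The replicate block was the number within a time in the fit of both fractions, and the number across times in a fit of 1 fraction. Across times, same-numbered libraries of a time and of naive correlated over 0.1 in 4 of 32 pairs in IP and 8 of 33 in Input. The block across times gave 18 calls against naive in IP, 34 in Input, and 5 and 15 between neighbouring times. The block within a time gave 22 calls for IP against Input and 2 differences of responses.

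Over all genes, calls ranged across the alternatives from 46 to 709 at 1 h in IP (293 in the reported fit), 40 to 760 at 12 h (423), 150 to 763 at 24 h (516), 229 to 812 at 72 h (650) and 860 to 5647 at 7 d (5289). In Input they ranged from 19 to 2266 at 1 h (1819), 185 to 1070 at 12 h (824) and 6066 to 9204 at 7 d (9106), and for the difference of responses from 27 to 2811 (2342). Between neighbouring times, in order from 1 h on, they ranged in IP from 10 to 43 (17), 5 to 219 (66), 3 to 47 (12), 0 to 22 (2) and 2464 to 4553 (3702), and in Input, up to 72 h, from 144 to 460 (174), 393 to 1022 (785), 612 to 1179 (928) and 2077 to 3929 (2517). Low counts limit Fbln1, Pdgfra and Timp1 before 12 h in IP.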
